A study of Mus musculus with 14 samples.

Results

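Acute phase genes, complement genes and Pigr were followed in whole kidneys of female CD-1 mice. The set is a list of 10 gene symbols, namely the serum amyloid A genes Saa1, Saa3 and Saa4, the complement genes C3, Cfb and C4b, the fibrinogen chains Fga, Fgb and Fgg, and Pigr. All 10 were matched to an Ensembl gene, and all 10 were among the 22339 genes with more than 10 counts in total over 14 libraries, of 56980 genes in the deposited counts. They were picked after the counts of all 4 groups had been seen, so their levels, fold changes and test calls are a description of these libraries and not independent evidence.

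Kidney RNA was sequenced from mice of 18 weeks, with 4 term nondiabetic (T-ND), 4 term diabetic (T-D), 3 preterm nondiabetic (PT-ND) and 3 preterm diabetic (PT-D) animals, all wild type. CD-1 is an outbred stock. Hyperglycemia was induced with streptozotocin (STZ), a toxin of the insulin-producing beta cell, and some PT-D mice of the study were given a further round of it, which of them is not given. Preterm pups were delivered by Caesarean section and raised by foster mothers that had received acepromazine, a sedative, whereas term pups were born naturally and stayed with their dams, so preterm birth cannot be told apart from these. Mice of every group received cationic ferritin, an imaging agent, shortly before the kidney was taken, and the blood vessels were rinsed with saline. Each library is 1 mouse.

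Acute phase proteins are plasma proteins whose synthesis changes in infection and injury, in the liver above all, under cytokines such as interleukin 6 and interleukin 1. Fibrinogen is assembled from 3 chains in equal number and forms the clot. Complement C3 is the protein on which all routes of complement activation meet, and Pigr is the receptor that carries polymeric immunoglobulin A across epithelia. Injured tubule cells are also known to make several of these proteins.

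Counts on genes ranged from 16697246 to 28673176 per library, with a median of 18765582. The 10 genes together took between 0.0106% and 0.241% of them. The kidney markers Lrp2, Umod and Aqp2 were counted in all 14 libraries, and 4 Y-linked genes summed to at most 3 counts in any library. The names of 5 libraries end in the suffix a, the meaning of which is not given in the labels. Among these 5, the share of the 10 genes was 0.0841% in the PT-D library and 0.0106% to 0.0232% in the other 4. Among the 9 without the suffix, it was 0.153% and 0.241% in the PT-D libraries and 0.0129% to 0.147% in the other 7. Levels below are normalized counts, meaning counts scaled to a common library size by TMM, a method that sets the scale from the bulk of genes. A gene was called a differentially expressed gene (DEG) when its adjusted p-value in edgeR's quasi-likelihood test, corrected over all genes tested, was under 0.05 and its log2 fold change was above 1 or below -1.

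The fibrinogen genes lie side by side on chromosome 3 in GRCm39, Fgg from 82915030 to 82922363, Fga from 82933383 to 82940934 and Fgb, on the opposite strand, from 82947448 to 82957170. Saa3, Saa4 and Saa1 are neighbours on chromosome 7, from 46361422 to 46365576, from 46377406 to 46382035 and from 46389916 to 46392547. C3 is at 57510964 to 57535155 of chromosome 17, C4b at 34947354 to 34962912 and Cfb at 35074852 to 35081559 of the same chromosome, and Pigr at 130754397 to 130779986 of chromosome 1. RefSeq promoter windows of 300 bases, 250 before the start site and 50 from it, were found in the GRCm38.p6 table for 8 of the 10 genes, all but Cfb and C4b. A handful are shown, from genes that were highest of their groups in T-ND replicate 3, T-D replicate 2 and PT-D replicate 3. Matches to 5 motifs are in capitals and every other base is in lower case. Fga is at chr3:83025903-83026202, Fgb at chr3:83049814-83050113, Fgg at chr3:83007474-83007773, C3 at chr17:57228087-57228386 and Saa4 at chr7:46732554-46732853 of GRCm38.p6, each written from 5′ to 3′ on the strand of its gene.
Fga: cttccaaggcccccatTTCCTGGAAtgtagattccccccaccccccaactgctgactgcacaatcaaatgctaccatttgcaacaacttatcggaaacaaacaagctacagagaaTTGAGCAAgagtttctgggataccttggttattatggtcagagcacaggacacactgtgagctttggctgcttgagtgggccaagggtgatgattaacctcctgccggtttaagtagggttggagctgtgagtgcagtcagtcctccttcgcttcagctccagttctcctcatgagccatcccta
Fgb: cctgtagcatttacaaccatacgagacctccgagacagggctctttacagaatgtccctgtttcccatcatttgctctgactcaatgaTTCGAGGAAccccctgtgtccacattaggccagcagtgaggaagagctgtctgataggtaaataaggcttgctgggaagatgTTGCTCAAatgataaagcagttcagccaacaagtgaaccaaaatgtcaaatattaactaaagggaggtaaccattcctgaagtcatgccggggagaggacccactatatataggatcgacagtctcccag
Fgg: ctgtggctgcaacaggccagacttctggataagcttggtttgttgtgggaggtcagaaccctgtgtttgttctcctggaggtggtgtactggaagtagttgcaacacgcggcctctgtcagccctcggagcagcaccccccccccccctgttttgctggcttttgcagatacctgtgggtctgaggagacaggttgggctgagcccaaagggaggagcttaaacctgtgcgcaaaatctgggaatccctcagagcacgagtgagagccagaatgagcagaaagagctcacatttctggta
C3: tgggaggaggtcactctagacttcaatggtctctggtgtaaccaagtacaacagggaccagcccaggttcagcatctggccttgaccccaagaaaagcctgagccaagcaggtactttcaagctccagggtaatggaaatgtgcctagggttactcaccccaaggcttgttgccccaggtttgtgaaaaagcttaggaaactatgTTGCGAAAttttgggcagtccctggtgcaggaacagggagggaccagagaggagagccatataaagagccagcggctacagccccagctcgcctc
Saa4: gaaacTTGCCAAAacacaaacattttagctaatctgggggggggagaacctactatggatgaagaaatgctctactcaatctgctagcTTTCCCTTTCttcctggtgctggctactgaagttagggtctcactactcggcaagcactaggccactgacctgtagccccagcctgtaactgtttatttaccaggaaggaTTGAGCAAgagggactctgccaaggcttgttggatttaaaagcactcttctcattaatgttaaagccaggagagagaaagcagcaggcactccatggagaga

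A C/EBP motif (TTGCNNAA, both strands) was matched in 6 of the 8 windows and in 10.8% of 32851 promoter windows of the same length. It begins at -135 from the start site in Fga, -80 in Fgb, -45 in C3 and -52 and -245 in Saa4, and it was also matched in Saa1 and Saa3. A STAT motif (TTCNNNGAA) was matched in 3 of the 8, at -234 in Fga, -162 in Fgb and 39 in Pigr, and in 8.3% of all windows. An IRF motif (GAAA, any pair of bases, GAAA) was matched in 2 of the 8, Saa3 at -125 and Saa4 at -162, and in 3.44% of all windows. The NF-kB motif and the HNF1 motif (GTTAAT, any base, ATTAAC) were in 0 of the 8 windows, against 8.46% and 0.00913% of all windows. The motif matches did not overlap each other, and the Fgg window held none of them. Such matches describe letters and were not tested as binding sites.

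Fga, the alpha chain, had the highest median of the 10 genes per kilobase in every group, with medians of 413 (T-ND), 2356 (T-D), 489 (PT-ND) and 6239 (PT-D) normalized counts per kilobase of transcript. Its counts were 1022, 733, 11985 and 1114 in T-ND replicates 1 to 4 and 1138, 18431, 4960 and 7232 in T-D replicates 1 to 4. They were 3134, 1266 and 614 in PT-ND replicates 1 to 3 and 6957, 16140 and 23667 in PT-D replicates 1 to 3. Every PT-D kidney lay above every PT-ND kidney, but T-ND replicate 3 and T-D replicates 2 and 4 lay within the PT-D range.

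Fgg, the gamma chain, followed the same libraries. It had 108, 78.5, 2748 and 59.1 normalized counts in T-ND and 46.4, 2412, 144 and 236 in T-D. It had 539, 214 and 53.1 in PT-ND and 1245, 2897 and 4592 in PT-D. Again T-ND replicate 3 and T-D replicate 2 overlapped PT-D, while the other term kidneys and all PT-ND kidneys did not.

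Fgb, the beta chain, was the scarcest of the 3 chains. It had 60.6, 78.5, 326 and 8.6 normalized counts in T-ND, 1.13, 494, 18.3 and 14.2 in T-D, 73, 76.9 and 2.31 in PT-ND and 327, 578 and 924 in PT-D. The values of T-D replicate 1 and PT-ND replicate 3 rest on 1 and 2 counts, close to what this depth can detect. T-D replicate 2 apart, the T-D kidneys were below T-ND replicates 1 and 2 for Fgb although all of them were above these for Fga.

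The chains were therefore not in 1 ratio across kidneys. Per kilobase, Fga exceeded Fgb 31.3- to 41.1-fold in the 3 PT-D kidneys, 24.2- to 392-fold in PT-ND, 13.7- to 191-fold in T-ND and 55- to 1480-fold in T-D. The ratio of Fga to Fgg was 3.74 to 4.06 in PT-D and 3.17 in T-ND replicate 3, and it was 17.8, 25 and 22.3 in T-D replicates 1, 3 and 4 against 5.55 in T-D replicate 2. In Fgg, 8.25% of the exon bases are shared with the noncoding gene Gm30097, and reads on shared bases were not counted for either.

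**Figure D1:**
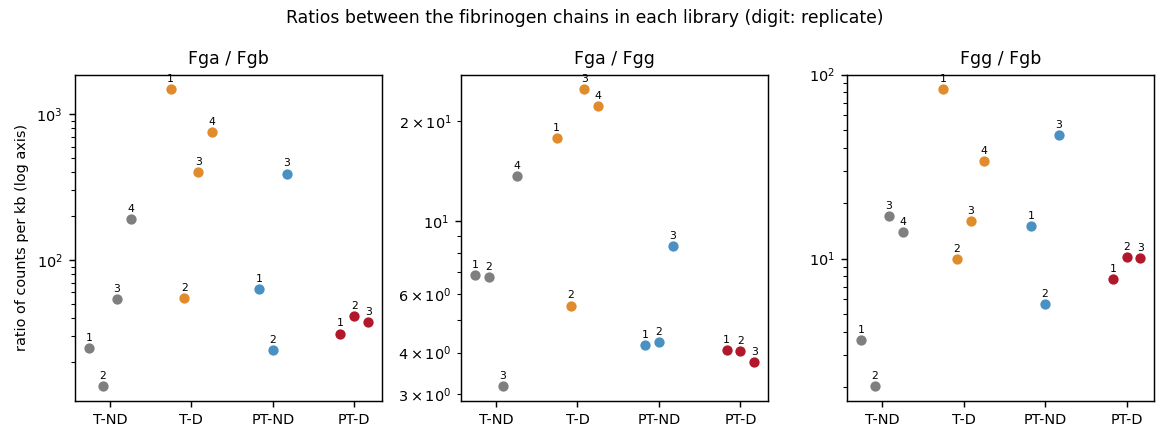
Ratios between the fibrinogen chains, as normalized counts per kilobase, in each library on log axes, by group, with the replicate number beside each point. The 3 PT-D libraries sit close together in all panels (Fga over Fgb 31.3 to 41.1), while T-D replicates 1, 3 and 4 reach 1480, 399 and 752.

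The serum amyloid A genes encode small apolipoproteins of high-density lipoprotein. Saa1 is an acute phase form made by liver, Saa3 is made by many tissues and by macrophages, and Saa4 is known as the constitutive form. Saa1 had 8.32, 0, 712 and 6.45 normalized counts in T-ND, 18.1, 1551, 393 and 848 in T-D, 194, 50.9 and 11.5 in PT-ND and 163, 556 and 1882 in PT-D. Groups overlapped in every comparison. T-ND replicate 3 lay within the ranges of T-D and PT-D, and T-D replicate 1 was close to the other T-ND kidneys. PT-ND replicate 1 was above PT-D replicate 1. The 0 counts of T-ND replicate 2 allow up to 2.74 normalized counts.

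Saa4 had 0, 1.83, 271 and 11.8 normalized counts in T-ND, 29.4, 267, 248 and 140 in T-D, 9.39, 19.2 and 17.3 in PT-ND and 194, 284 and 496 in PT-D. PT-D and PT-ND did not overlap, and the 0 counts of T-ND replicate 1 allow up to 3.56 normalized counts. Saa3 varied least of the 3, with 20.2, 34.7, 315 and 100 in T-ND, 156, 355, 175 and 310 in T-D, 138, 47.5 and 227 in PT-ND and 223, 296 and 514 in PT-D. The highest PT-ND kidney, replicate 3, was above the lowest PT-D kidney for Saa3.

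C3 had 396, 276, 1828 and 571 normalized counts in T-ND and 857, 3597, 2074 and 1359 in T-D. It had 871, 383 and 738 in PT-ND and 2622, 3990 and 8759 in PT-D. The PT-D kidneys were above all T-ND and all PT-ND kidneys, and only T-D replicate 2 reached into their range. C4b, which is cleaved in the classical and lectin pathways, had 54.7, 74, 592 and 213 in T-ND, 334, 281, 219 and 268 in T-D, 106, 215 and 194 in PT-ND and 462, 455 and 573 in PT-D. The PT-D values exceeded all T-D and PT-ND values, and T-ND replicate 3 was the highest kidney of the 14. Of the 100-base stretches in the C4b transcript, 16.3% also occur in its near copy C4a, so reads from these could be lost or split.

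Cfb, the factor that gives the alternative pathway convertase its protease, did not follow the others. It had 228, 127, 131 and 75.2 normalized counts in T-ND, 111, 158, 107 and 37.3 in T-D, 141, 80.3 and 90 in PT-ND and 75.7, 106 and 204 in PT-D, and all groups overlapped. Its measurement is limited, because 78.2% of its exon bases overlap the readthrough gene Gm20547 or the neighbour Nelfe. Reads that fall on more than 1 gene were not counted, Gm20547 had 0 counts in all 14 libraries, and the Cfb counts thus come from the remaining 744 exon bases. How far this lowers them was not tested.

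Pigr had 946, 724, 3618 and 982 normalized counts in T-ND and 1899, 2323, 1593 and 1353 in T-D. It had 1095, 1033 and 873 in PT-ND and 3893, 4846 and 3148 in PT-D. The PT-D kidneys were above all T-D and all PT-ND kidneys, and in T-ND only replicate 3 reached into their range. Within PT-D, Pigr spanned 1.54-fold and C4b 1.26-fold from the lowest to the highest kidney, against 11.5-fold for Saa1 and 3.34-fold for C3.

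**Figure D2:**
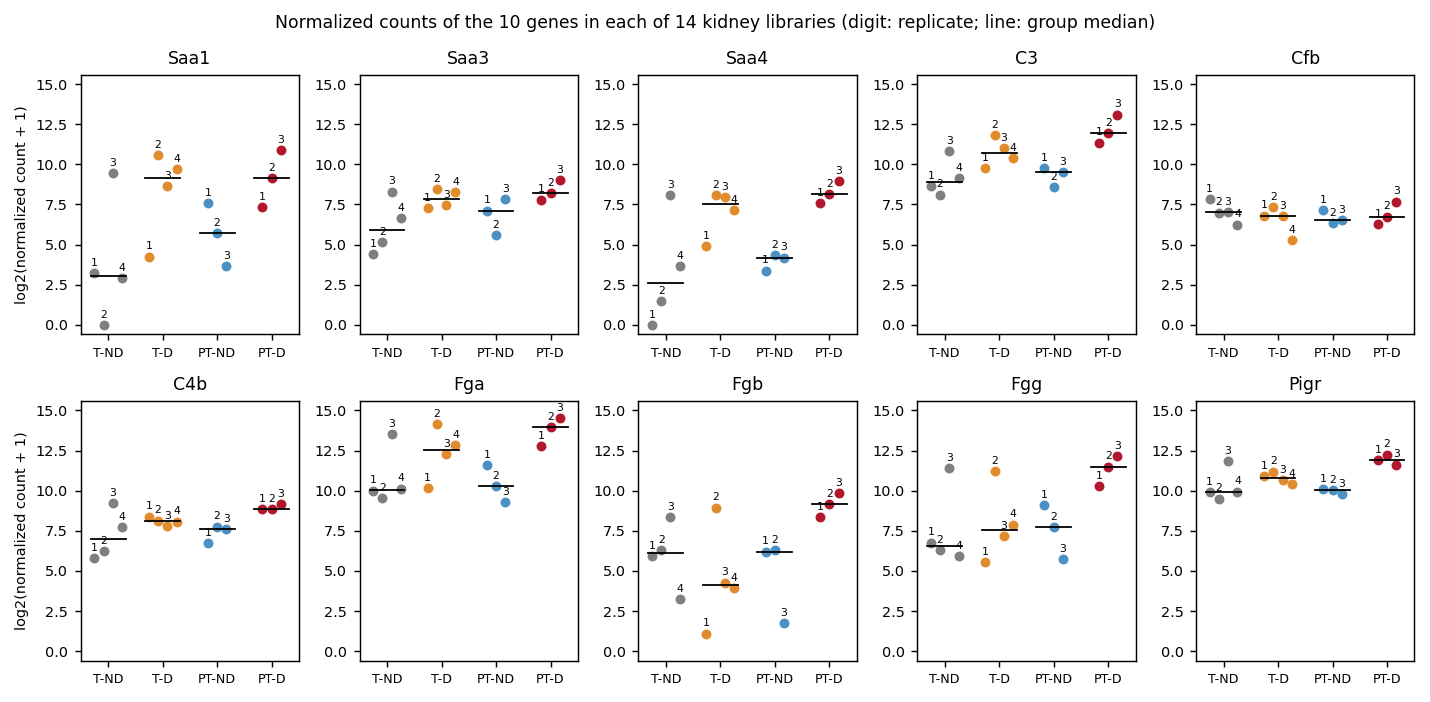
Levels of the 10 genes as log2(normalized count + 1) in each of the 14 libraries, 1 panel per gene, with the replicate number beside each point and a line at the group median. T-ND replicate 3 and T-D replicate 2 are the highest of their groups in 9 of the 10 panels each.

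A single kidney stood apart in each term group. T-ND replicate 3 was the highest of its group for 9 of the 10 genes, all but Cfb, where it was the highest of its group for 27.7% of all genes. T-D replicate 2 was the highest of its group for 9 genes, all but C4b, against 23.8% of all genes. PT-D replicate 3 was the highest of PT-D for 9 genes, all but Pigr, against 33.5%, and PT-ND replicate 1 was the highest of PT-ND for 6 genes against 35.2%. The 10 genes took 0.117% of all counts in T-ND replicate 3 and 0.0106% to 0.0166% in the other T-ND kidneys. They took 0.147% in T-D replicate 2 and 0.0232% to 0.0489% in the other T-D kidneys.

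The genes whose log2 levels were most like those of each of the 10 were taken from 11626 other protein-coding genes, as Pearson's r over the 14 libraries. These share library, tissue and depth, so r is a description. Saa1 was most like Saa2 (r = 0.94), its neighbour and near relative, with no stretch of 100 bases in common between the Saa1 transcript and any other gene. Fga was most like Nub1, Nras and Stat3 (r = 0.95, 0.94 and 0.93), and Fgg most like Nras (r = 0.92). C3 and Saa4 were both most like Mcl1 (r = 0.97 and 0.95), a survival gene of the BCL2 family, and Saa4 next like Lcn2 (r = 0.95), which encodes an iron-siderophore binding protein of injured tubules. Pigr was most like Cfap69 (r = 0.94). With the group means removed, these r values lay between 0.84 and 0.93, pooled over the 4 groups. The genes were picked by r over the same libraries, and T-ND replicate 3 and T-D replicate 2 lie far from their group means, so the second set of values supports nothing further.

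Diabetic and nondiabetic preterm kidneys were compared to ask what STZ changed after preterm birth. Of the 10 genes 8 were called higher and 0 lower in PT-D, where 2.96% of all 22303 genes tested were called higher and 1.99% lower, and nothing is read from this count because the genes were chosen on these libraries. The log2 fold changes (± SE) were 3.33 ± 0.91 for Saa1, 4.40 ± 0.42 for Saa4, 2.95 ± 0.43 for C3, 1.53 ± 0.25 for C4b and 1.99 ± 0.19 for Pigr. The fibrinogen chains had similar values to each other, 3.22 ± 0.57 for Fga, 3.58 ± 0.68 for Fgb and 3.43 ± 0.68 for Fgg. Saa3 (1.33 ± 0.46) and Cfb (0.31 ± 0.38) were not called. All PT-D kidneys were above all PT-ND kidneys for 7 genes, Saa4, C3, C4b, Fga, Fgb, Fgg and Pigr, as they were for 18.7% of all genes. Between 6 and 8 of the genes were called with any 1 library left out. With all 14 libraries in a joint fit, in which the term kidneys help to set the spread, C3 and Pigr were the 2 that were called.

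The comparison of PT-D with T-ND asked about preterm birth and diabetes together, and it shares the PT-D kidneys with the one above. Here 0 of the 10 genes were DEGs in edgeR, 4 had an unadjusted p under 0.05 and DESeq2 called 1, C3, where edgeR called 0.995% of 22310 genes higher and 0.453% lower. C3 had an adjusted p of 0.0506 in edgeR's quasi-likelihood test. It was called in 7 of 8 alternatives, fits with a single library left out aside. The log2 fold changes were 2.73 ± 0.63 for C3, 2.36 ± 0.79 for Fgb, 2.25 ± 1.47 for Saa1, 2.18 ± 1.24 for Saa4, 2.07 ± 0.91 for Fga, 1.96 ± 1.19 for Fgg, 1.54 ± 0.74 for Saa3, 1.33 ± 0.49 for Pigr, 1.09 ± 0.65 for C4b and -0.13 ± 0.41 for Cfb. For C3 and Fgb the groups did not overlap, as for 12% of all genes.

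Apart from C3, the calls of this comparison turned largely on T-ND replicate 3. Without it, 9 of the 10 genes were called higher, all but Cfb, and the log2 fold change became 4.01 ± 0.41 for Fga, 5.14 ± 0.47 for Fgg, 3.62 ± 0.45 for C3 and 2.15 ± 0.19 for Pigr. Over all genes, 323 were called with it and 1063 without it. This kidney was singled out because the genes are highest in it, so calls gained without it support nothing. The values of Saa1 (7.51 ± 1.08) and Saa4 (6.11 ± 0.72) without it depend on the prior count, since the T-ND kidneys that remain hold few or no counts of them.

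**Figure D3:**
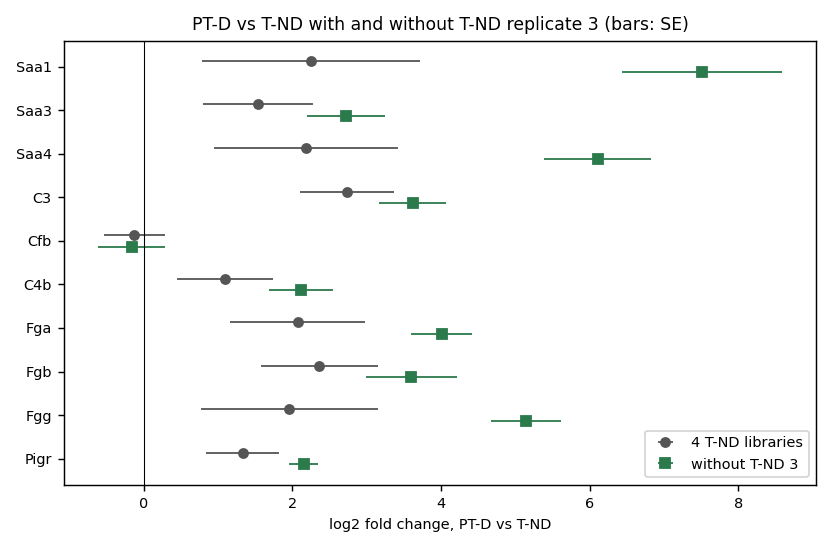
Fitted log2 fold change of the 10 genes between PT-D and T-ND, with SE bars, from all 4 T-ND libraries (circles) and without T-ND replicate 3 (squares). Without it every gene but Cfb moves to the right, Fgg from 1.96 to 5.14. This kidney was left out because the genes are highest in it, so the shift is a description.

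PT-D was compared with T-D to ask about preterm birth among diabetic kidneys. Of the 10 genes 0 were DEGs in edgeR, against 0.135% of 22294 genes called higher and 0.0583% lower, 3 had an unadjusted p under 0.05, and DESeq2 called 1, Pigr. All 10 values were positive. Pigr had a log2 fold change of 1.14 ± 0.22 and C4b of 0.85 ± 0.19, both with no overlap between the groups, as for 12.4% of all genes. C3 was at 1.37 ± 0.45, Fgb at 2.22 ± 1.08, Fgg at 2.03 ± 0.96 and Fga at 0.96 ± 0.65. The serum amyloid genes were at 0.29 ± 0.93 (Saa1), 0.46 ± 0.33 (Saa3) and 0.91 ± 0.53 (Saa4), and Cfb at 0.30 ± 0.44. Without T-D replicate 2, 3 genes were called, Fgb (5.68 ± 0.59), Fgg (4.35 ± 0.58) and Pigr (1.29 ± 0.22). This kidney too was singled out because the genes are highest in it, so calls gained without it support nothing.

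In T-D compared to T-ND, the effect of STZ after term birth, 0 of the 10 genes were DEGs in edgeR and 0 in DESeq2, where edgeR called 0.0539% of 22275 genes higher and 0.0135% lower, and 1 had an unadjusted p under 0.05. That was C3, with a log2 fold change of 1.34 ± 0.56. Saa1 was at 1.92 ± 1.40, Saa4 at 1.24 ± 1.16, Fga at 1.07 ± 0.91 and Saa3 at 1.05 ± 0.65, while Pigr was at 0.17 ± 0.43, Fgb at 0.11 ± 1.23 and Fgg at -0.11 ± 1.28. The last 3 values depended on single kidneys. Fgb was at 1.38 ± 1.28 and Fgg at 3.09 ± 1.06 without T-ND replicate 3, and they were at -3.37 ± 1.05 and -2.42 ± 1.27 without T-D replicate 2. Without T-ND replicate 3, 5 genes were called, Saa1, Saa3, Saa4, C3 and Pigr, the last at the fold threshold (1.00 ± 0.21), and without both T-ND replicate 3 and T-D replicate 2 only C3 (1.79 ± 0.34). These 2 kidneys were singled out because the genes are highest in them, so calls gained without them support nothing.

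In PT-ND compared to T-ND, the effect of preterm birth without STZ, 0 of the 10 genes were DEGs in edgeR or DESeq2, 0 had an unadjusted p under 0.05, and edgeR called 0.0719% of 22254 genes higher and 0.00899% lower. The values ranged from -2.21 ± 1.46 for Saa4 to 0.22 ± 0.79 for Saa3. T-ND replicate 3 set most of the signs here. Without it, 0 genes were called and every value but that of Cfb was positive, with Saa1 going from -1.08 to 4.15 ± 1.04, Saa4 to 1.70 ± 0.97, Fgg from -1.47 to 1.71 ± 0.61, Fga from -1.15 to 0.80 ± 0.44 and C4b from -0.44 to 0.57 ± 0.45.

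**Figure D4:**
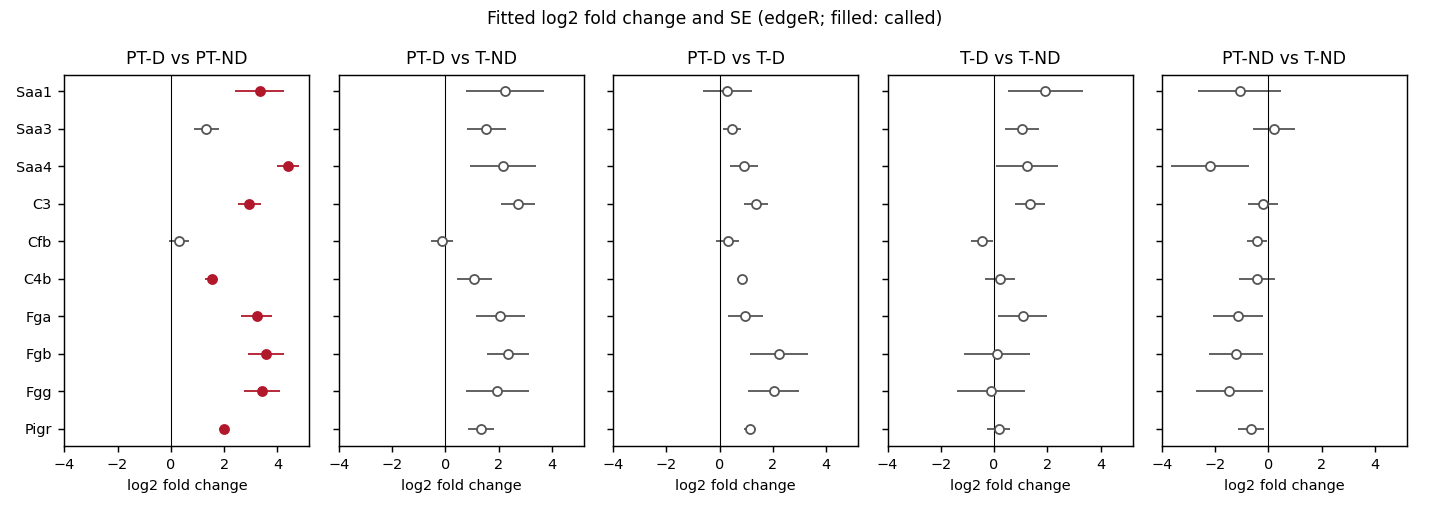
Log2 fold changes of the 10 genes with SE bars in 5 comparisons of groups, from edgeR, with filled points for genes called. The filled points, 8 of 10, are all in PT-D compared to PT-ND, and the comparisons share groups with each other.

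The difference between the STZ effects after preterm and after term birth was tested as an interaction over all 14 libraries. Of the 10 genes 0 were called in edgeR, where 1.98% of 22339 genes were called higher and 2.46% lower, 1 (Pigr) had an unadjusted p under 0.05 and DESeq2 called 1 (Pigr). All 10 differences were positive, with 1.79 ± 0.59 for Pigr, 3.52 ± 1.87 for Fgg, 3.44 ± 1.79 for Fgb, 3.14 ± 1.65 for Saa4, 2.12 ± 1.33 for Fga and 1.59 ± 0.84 for C3. Without both T-ND replicate 3 and T-D replicate 2, Pigr (1.12 ± 0.27) and Fgb (5.66 ± 1.25) were called and Saa1 turned to -3.14 ± 1.89, Saa3 to -0.72 ± 0.79 and Saa4 to -0.50 ± 1.11. In the main edgeR fit of all libraries, an effect called in preterm but not in term kidneys is thus not shown to differ between them. This holds for each of the 10 genes in that fit, whereas DESeq2 called Pigr.

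The wider pathways were followed in 8 lists of 136 genes, of which 123 were above the filter. The acute phase list had 19 such genes, and in PT-D compared to PT-ND 6 of them rose and 0 fell, with a median log2 fold change of 1.74 against 0.05 over all genes, of which 2.96% were called higher and 1.99% lower. The 4 largest were Itih4 (4.15 ± 0.65), an inter-alpha-trypsin inhibitor heavy chain, Lbp (3.33 ± 0.46), the lipopolysaccharide-binding protein, Steap4 (2.99 ± 0.39), a metalloreductase, and Lcn2 (2.77 ± 0.31). The others were Serpina3n (2.11 ± 0.41), a protease inhibitor, and Cd14 (1.53 ± 0.31), the coreceptor for lipopolysaccharide. Lcn2 had 707, 558 and 605 normalized counts in PT-ND and 2937, 3048 and 6790 in PT-D, with no overlap. Against T-ND, Itih4 (3.08 ± 0.62) and Hpx (2.70 ± 0.52), which binds free heme, rose (2 of 19, against 0.995% of all genes called higher), and the list's median was 1.61 against 0.03. With any 1 library left out, between 0 and 27 of the 123 pathway genes were called in that comparison. Against T-D, none of the 19 was called, 6 had an unadjusted p under 0.05, and the median was 1.01 against 0.06.

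The complement and coagulation lists were read beside the share of all genes called, 2.96% higher and 1.99% lower between PT-D and PT-ND. A count of 0 or 1 in lists this short is not read as scarcity. Between PT-D and PT-ND, 0 of 17 initiation genes rose and 1 fell, C1rl (-1.09 ± 0.31), a serine protease, and the median was -0.08. The initiation list had 0 of 17 called in T-D compared to T-ND (14 positive, median 0.51, 3 with an unadjusted p under 0.05), in PT-ND compared to T-ND (14 positive, median 0.49, 5 with such a p) and in PT-D compared to T-D (6 positive, median -0.29, 6 with such a p), and its median interaction was -0.69 against 0.07 over all genes. In PT-D compared to PT-ND, none of the 7 genes of amplification and lysis was called (median -0.38, 0 with an unadjusted p under 0.05), and none of the 7 receptors (median 0.38, 1 with such a p). Of 12 regulators 2 rose, Cd46 (1.47 ± 0.40), a cofactor for C3b cleavage, and Clu (1.19 ± 0.20), which blocks the membrane attack complex. Clu also rose in PT-D compared to T-ND (1.20 ± 0.22). Of 25 coagulation and fibrinolysis genes, Thbd (1.20 ± 0.30), which turns thrombin toward protein C, and Plat (1.08 ± 0.30), a plasminogen activator, rose and Plau (-1.05 ± 0.30), the other plasminogen activator, fell, with a median of 0.05. Thbd (1.27 ± 0.17) and Plaur (1.21 ± 0.24), the receptor of Plau, rose in PT-D compared to T-ND, and Plaur was also higher in PT-ND than in T-ND (1.46 ± 0.21).

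The genes of the cargo of Pigr were counted too. None of Igha, Jchain, Ighm, Igkc and Fcamr was called in any of the 6 comparisons. Against PT-ND, Igha in PT-D was at -0.82 ± 0.48 and Jchain, the chain that Pigr binds, at -1.32 ± 0.52. Against T-D all 5 values for PT-D were positive, from 0.64 ± 0.34 for Jchain to 0.83 ± 0.30 for Igha and 1.30 ± 0.44 for Igkc, the last 2 with an unadjusted p under 0.05. Fcgrt, the neonatal Fc receptor that returns immunoglobulin G and albumin to the blood, fell in PT-D compared to all other groups, by 1.13 ± 0.23 (PT-ND), 1.57 ± 0.20 (T-D) and 1.19 ± 0.17 (T-ND) on the log2 scale. It had 2126, 2592 and 2094 normalized counts in PT-D and 3278 to 8081 in the other 11 kidneys. The group median of Pigr was highest in PT-D, but edgeR did not call Pigr against T-ND or T-D. For Pigr, T-ND replicate 3 (3618) also lay above PT-D replicate 3 (3148).

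Of 30 genes of acute phase cytokines and signalling, 3 rose and 2 fell in PT-D compared to PT-ND. Of all genes, 2.96% were called higher and 1.99% lower there. Il6ra (1.43 ± 0.31), a chain of the interleukin 6 receptor, and Stat3 (1.32 ± 0.19), the factor this receptor activates, were among those that rose. Tnf (-1.90 ± 0.35) and Cebpd (-1.15 ± 0.19) fell, the latter a C/EBP factor known from acute phase induction. Stat3 had 6691, 5979 and 7417 normalized counts in PT-D, 3420, 2418 and 2196 in PT-ND, 2877, 5794, 4119 and 3245 in T-D and 1990, 1733, 5452 and 2768 in T-ND, so the term kidneys with the most Fga in their groups, T-ND replicate 3 and T-D replicate 2, also had the most Stat3 there. Cebpd had 1115, 1097 and 1048 in PT-D, 2882, 1712 and 2626 in PT-ND, 2303, 3165, 1834 and 2690 in T-D and 501, 936, 1395 and 734 in T-ND, and it also fell in PT-D compared to T-D (-1.20 ± 0.20). Against T-ND, Lif (1.84 ± 0.34), a cytokine of the interleukin 6 family, and Osmr (1.41 ± 0.27), the oncostatin M receptor, rose.

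The STZ effect was called different between preterm and term kidneys for 14 of the 123 genes. Of these, 3 were more positive and 11 more negative after preterm birth, against the background given above. With any 1 library left out, 2 to 13 of the 123 were called. In signalling, Il22ra1 (3.31 ± 0.81) and Il6ra (1.95 ± 0.51) were more positive, and Il6 (-4.42 ± 1.07), Tnf (-2.84 ± 0.51), Cebpd (-2.63 ± 0.40) and Socs3 (-2.44 ± 0.56), a feedback inhibitor of STAT3 signalling, were the most negative. Itih4 (4.44 ± 1.16) was the acute phase gene with a positive difference. For Il6, the term kidneys had 4.75, 11, 17.8 and 6.45 normalized counts without STZ and 123, 93.8, 18.3 and 25.7 with it, and the preterm kidneys 75.1, 24.9 and 46.2 without and 27.4, 2.26 and 14.4 with it. The order of the groups for Il6 was thus not that of C3 or Fga.

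**Figure D5:**
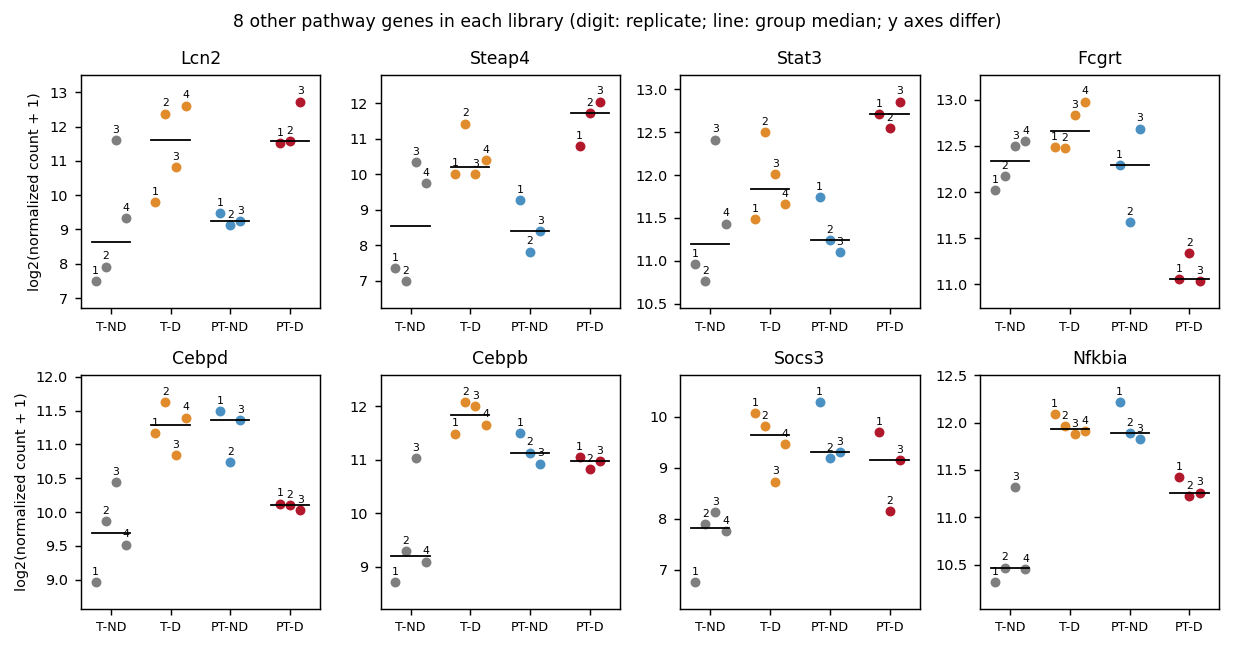
Levels of 8 other pathway genes as log2(normalized count + 1) in each library, with the replicate number beside each point and a line at the group median (the vertical axes differ). Stat3 is highest and Fcgrt lowest in the 3 PT-D libraries, and Cebpd lies between 1048 and 1115 normalized counts in PT-D and at 1712 or more in all T-D and PT-ND libraries.

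Markers of other cell types were read beside these levels. Of the 8 hepatocyte markers, Ahsg, Tat and Cps1 had 3, 8 and 3 counts over all 14 libraries together, and Alb had 125 to 594 normalized counts. The sum of the hepatocyte list was 4069 to 6198 in PT-D, 2315 to 3397 in T-ND, 2502 to 4486 in T-D and 3394 to 4198 in PT-ND, most of it Apob. The neutrophil list (6 of 7 above the filter, Elane below it) summed to 1344 to 4724 in PT-D, 377 to 1000 in T-ND, 357 to 1379 in T-D and 242 to 1390 in PT-ND, and Csf3r was called in PT-D compared to PT-ND (2.05 ± 0.42). The injured tubule list (6 of 6) summed to 53112 to 57477 in PT-D, 31451 to 42661 in T-ND, 40952 to 67031 in T-D and 35550 to 39092 in PT-ND, most of it Spp1. Its members did not move alike, since in PT-D compared to PT-ND Havcr1 (3.24 ± 0.73) and Krt20 (2.32 ± 0.62) were called higher and Ccl2 (-1.92 ± 0.34) lower. Havcr1, the kidney injury molecule, had 97.6 to 1599 normalized counts in PT-D, 82.6 to 121 in PT-ND, 39.6 to 202 in T-D and 57 to 2638 in T-ND. The endothelial list (4 of 4) was at 5391 to 6216 in PT-D and 2640 to 4733 elsewhere, with Cdh5 (1.37 ± 0.23) and Kdr (1.15 ± 0.27) called higher against PT-ND. Pecam1 (0.40 ± 0.19) and Emcn (-0.29 ± 0.21) were not called there. The podocyte gene Nphs1 had 862 to 1207 in PT-D and 185 to 722 elsewhere, and it was called higher against PT-ND (1.03 ± 0.23) and T-ND (1.41 ± 0.31). Slc4a1 of the collecting duct was called lower against PT-ND (-1.58 ± 0.26), and Umod of the loop of Henle against T-ND (-1.39 ± 0.26). The macrophage list (6 of 6) summed to 1148 to 2063 in PT-D and 1209 to 3179 elsewhere, and its gene Adgre1 was called higher against PT-ND (1.07 ± 0.25). Its other genes were not called there, with Cd163 (1.18 ± 0.90) and Mrc1 (0.38 ± 0.40) positive. Csf1r (-1.02 ± 0.42), Lyz2 (-0.35 ± 0.19) and Cd68 (-0.14 ± 0.36) were negative. The part of these cells in the levels of the 10 genes was not tested, and in whole kidney a change in cell number cannot be told apart from a change in RNA per cell.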

How the data were processed

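Poly(A) RNA of 14 whole kidneys was sequenced from unstranded libraries. Per the labels and the study's methods, the authors trimmed the reads, aligned them to GRCm39 with STAR and deposited 1 raw count per gene and library, of reads with a unique place. The unstranded counts were used. Reads on more than 1 gene (6.86% to 8.09%) or on none (2.39% to 5.42%) stayed out. Of 56980 gene IDs, 56236 matched GENCODE release 39 without their version, which gave symbols, exon lengths and positions.

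Groups and replicate numbers came from the labels. Genes with more than 10 counts in total were kept. The libraries of 2 groups at a time entered edgeR 4.0.16 (R 4.3.3) with TMM, the two-sided quasi-likelihood test and Benjamini-Hochberg adjustment, and the interaction used all 14. SEs were derived from the F statistic. P-values set a difference between groups against the spread between single mice. In the study litter mates served as nondiabetic controls, but the labels give no litters, so litter was not in the fits. The 10 genes, the pathway lists and the marker lists were chosen with earlier results of these data known. From each list the text names up to 4 called genes per direction, comparison and list whose mean was 10 normalized counts or more, and any other pathway gene with values was chosen after its values were seen. Some genes of these lists are not reported here. The procedure was tested on simulated data. DESeq2 1.42.0, RLE normalization, filterByExpr, no filter, a joint fit, the library-name suffix as a covariate, a replicate block, an adjusted p threshold alone and each library left out were the alternatives, and the joint omission of T-ND replicate 3 and T-D replicate 2 was added after seeing the data. A count of 0 was taken to allow up to 3 counts. Such limits cover counting error only.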

Additional observations from a re-analysis of the deposited data

Results flagged for a closer look

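Among the 4 libraries of T-ND, replicate 3 lay far from the others for Saa1, Saa4, Fga, Fgg and Pigr, with a gap to the next library of 0.988, 0.956, 0.966, 0.982 and 0.911 of the whole range of the group. In T-D, replicate 2 did so for Fgb (0.965) and Fgg (0.92). These are 7 of 20 groups of 4 libraries examined, 10 genes in T-ND and T-D, and chance flags about 1 in 20 groups of normally spread values. That rate cannot be held against these 7, since the genes were chosen with their counts known, move together, share 2 libraries and were read as unlogged, skewed counts, so the gaps are a description.

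In edgeR's interaction test over all genes, 14 of the 123 pathway genes were called for a different STZ effect after preterm and after term birth. Of all 22339 genes, 1.98% were called higher and 2.46% lower. With any 1 library left out, 2 to 13 of the pathway genes were called. The difference (preterm minus term, log2) was 4.44 for Itih4, 3.31 for Il22ra1 and 1.95 for Il6ra. It was -4.42 for Il6, -2.84 for Tnf, -2.63 for Cebpd, -2.44 for Socs3, -2.23 for Cebpb and -1.94 for Nfkbia in signalling, -2.72 for Ptx3 in the acute phase list, -3.13 for Mbl2 in complement initiation, -1.32 for Plaur and -2.11 for Cpb2 in coagulation and fibrinolysis, and -1.51 for Fcgrt.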

How the results depend on the processing

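For the 10 genes, the count called in PT-D compared to PT-ND was 8 and stayed within 6 to 9 except in the joint fit (2). In PT-D compared to T-ND the count of 0 became 1 with DESeq2, filterByExpr, the library-name suffix or the joint fit, 2 without a filter, 9 in the joint fit with T-ND 3 and T-D 2 both left out, and 0 to 9 with each library left out (9 without T-ND replicate 3). In PT-D compared to T-D it became 1 with DESeq2, 4 without a filter, 4 in the joint fit without both, and 0 to 3 with each library left out. In T-D compared to T-ND it was 1 without both and 0 to 5, and in the interaction 1 with DESeq2 or without a filter, 2 without both and 0 to 1. Of the 123 pathway genes, 8 were called in PT-D compared to T-ND, with 20 (DESeq2), 18 (no filter), 27 (joint fit without both) and 0 to 27 with each library left out. In PT-D compared to T-D the count was 2, with 14 (DESeq2), 16 (no filter), 7 (joint fit without both), 6 (joint fit), 1 (filterByExpr or the suffix) and 1 to 3 with each library left out. In PT-D compared to PT-ND it was 18 and 9 to 23 with each library left out. In T-D compared to T-ND it was 0, with 14 (DESeq2), 6 (no filter), 8 (both left out), 4 (joint fit), 1 (RLE or the suffix) and 0 to 14. In PT-ND compared to T-ND it was 1, with 9 (DESeq2), 7 (no filter, or the joint fit without both), 2 (joint fit), 0 (filterByExpr), 3 (suffix) and 0 to 12, and in the interaction it was 14 and 2 to 13 with each library left out. Saa1 in PT-D compared to PT-ND was called in 3 of 6 fits with a library left out and Fgg in 5 of 6. Apart from fewer libraries or genes in a fit, the causes were not tested. No called gene of the 10 changed sign under any alternative.

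The replicate block, with the number in the labels, called 2 of the 10 genes (C3 and Fgb) in PT-D compared to T-ND and 1 (Pigr) in PT-D compared to T-D. For the pathway genes it called 2 in PT-D compared to T-ND, 1 in T-D compared to T-ND and 0 in PT-ND compared to T-ND. The numbers did not pair the libraries, since deviations of same-numbered libraries from their group means correlated at -0.18 to 0.21, and 0 to 3 libraries per comparison correlated best with their own number.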

Other observations

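The complement gene Cfd, whose protein cleaves factor B, ranged from 0 to 4133 normalized counts with no order by group. It was 2324 in T-ND replicate 1, 3331 in T-ND replicate 4, 2992 in T-D replicate 1, 4133 in PT-ND replicate 3, 3729 in PT-D replicate 2 and 754 in PT-ND replicate 2, and at most 154 in the other 8 kidneys. The fat cell marker Adipoq was at 320, 421, 516, 328, 334 and 69 normalized counts in the same 6 kidneys and at most 18.3 in the other 8. The whole fat cell list (6 of 6 markers) summed to between 954 and 6108 normalized counts, and its part in these values was not tested. Cfd was chosen after its values were seen.

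The genes of the C1 protease subcomponents also varied between kidneys of 1 group, and they too were chosen after their values were seen. C1ra had 572, 729 and 657 normalized counts in PT-D and 52.4 to 495 in the other 11 kidneys. C1s1 had 257, 454 and 295 in PT-D, above the 8 term kidneys (0 to 209) and overlapping PT-ND (156 to 368). C1ra and C1rb are near copies, between which reads can be lost or split. C1s1 had 0 counts in T-ND replicate 3 and T-D replicate 2 and at least 86 in the other 12 libraries. In the same 2 kidneys C1ra had 50 and 53 counts, against 194 or more in the other 12, and C1rb had 292 and 395, against 171 or fewer. They are also the 2 kidneys in which 9 of the 10 genes were highest in their groups.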
